A study of Equus caballus with 26 samples.

Results

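All 16 arrays of horse whole blood taken at T1, after the endurance ride, were compared with each other, to ask which gene functions differed most and least from horse to horse. They were every array with a T1 label among the 26 arrays of the series, 13 from the validation set and 3 from the training set, and no T0 array (before the ride) was used. Each array stood for a different horse. Of the 24415 gene names on the array, 13436 were well above background on all 16 arrays, and these were ranked by the standard deviation (SD) of their log2 level over the horses.

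The horses had taken part in a 160 km ride, and the labels give the cohort a mean age of 10 ± 2 years (SEM). Every T1 horse carried the breed label Autre. The validation horses were the females 1, 7 and 19 and the geldings 4, 8, 17, 21, 24, 34, 44, 46, 55 and 62, and the training horses were the geldings 2, 32 and 41. RNA came from whole blood drawn into PAXgene tubes, so a level in these data is the mean over all blood cells and platelets, and fewer cells of a type cannot be told apart from less RNA per cell. With 1 array per horse, the SD holds the differences between animals together with those of blood sampling, RNA handling, labelling and scanning.

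Circulating blood holds red cells and their young forms, platelets, neutrophils, monocytes, lymphocytes and rare granulocytes, each with its own transcripts. Long exercise is known to release neutrophils and platelets from marrow, spleen and vessel walls, to shift lymphocytes out of the blood and to raise stress hormones and acute-phase proteins. Genes that serve every cell, such as those of the proteasome, the splicing machinery and the translation apparatus, are read in all of these cells at once.

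Markers of each blood cell class were present. Of the genes on the array, 20 of 21 mature neutrophil, 14 of 15 monocyte, 20 of 22 T cell and 12 of 15 B cell markers were well above background in all 16 horses. So were 11 of 18 platelet, 10 of 23 erythroid and 5 of 12 basophil and eosinophil markers. Among all gene names it was 13436 of 24415, so the platelet share was near that of all names and the erythroid and basophil shares were below it. Per array, the share of probes flagged as well above background ran from 60.42% to 75.44%. The array of horse 34 stood apart, because it was scanned in 1 pass, held 431 saturated spots against 0 on the others, and had a largest signal of 88002.5 against at least 561184.2 elsewhere. On that array the brightest genes were at its ceiling, and some summaries of spread are also given without it. The arrays were scanned on 7 days, with horses 2 and 24 on day 1, horses 4, 55 and 62 on day 2, horse 21 on day 3, horses 1, 8, 34 and 44 on day 4, horse 46 on day 5, horses 7, 17 and 41 on day 6, and horses 19 and 32 on day 7. The arrays of days 2 and 3 had the 4 lowest shares of probes well above background.

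Most genes differed little between horses, and a small tail differed by several log2 units. The median SD was 0.37 log2 over the 13436 gene names, with 5% of them under 0.20 and 5% over 0.81. Only 197 names (1.466%) had an SD above 1 log2. The size of the spread and the order of the genes depended on the normalization, since with normexp and quantile normalization the median SD was 0.179 and 547 of the 1343 names of the highest 10.0% were shared, and in the deposited series values 0.256 and 829. The highest 10.0% of the ranking (1343 names) began at an SD of 0.6933, with the next name below it at 0.6931, and the lowest 10.0% ended at 0.2247. Brighter genes had a somewhat smaller SD (Spearman rho of -0.29 across gene names, which are not independent).

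The spread was far larger than the error between spots. For 291 probes spotted more than once, the median SD between spots of the same array was 0.063, against 0.405 between horses. For 4475 gene names a second probe, which the ranking did not use, was also well above background on all arrays, and the median r between both probes over the 16 horses was 0.94. In the highest 10.0% it was 0.99 over 262 names, of which 211 had an r above 0.9 and 15 an r below 0.5. Most names of the highest 10.0% could not be checked in this way, since 73.6% of them had 1 probe, against 62.1% of all ranked names. In the lowest 10.0% it was 0.89 over 569 names. Both parts were chosen by SD, and r itself depends on the size of the spread. Spots and probes of an array share its RNA, labelling and scan. These values therefore do not separate differences between horses from errors of a whole array. Horse 34 had little weight in the ranking, since 1286 of the 1343 names of the highest 10.0% stayed in it without that horse.

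**Figure D1:**
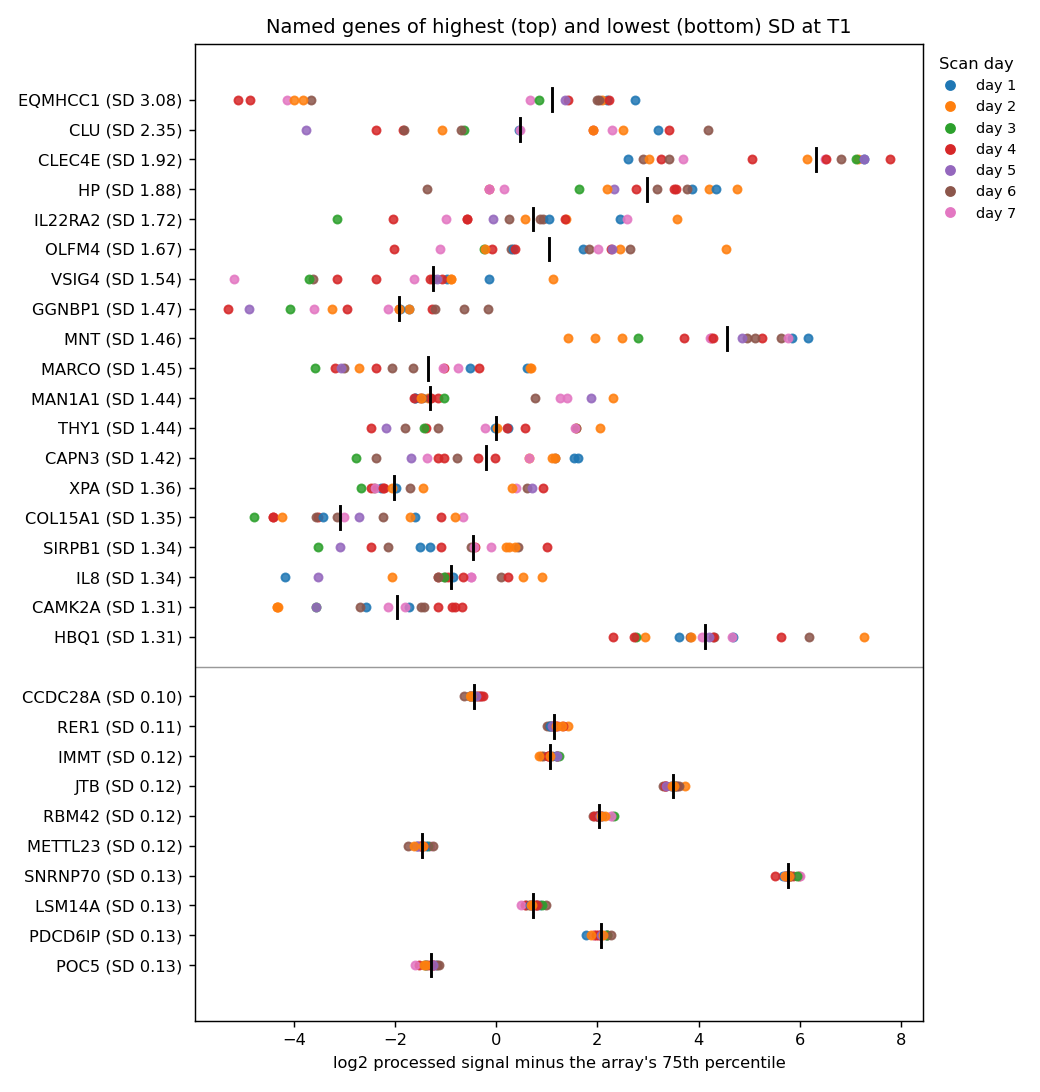
Levels of genes with a symbol among the 20 of highest SD (top) and of the 10 of lowest SD (bottom) at T1, on the x axis as log2 processed signal minus the array's 75th percentile. Each point is a horse coloured by the scan day of its array, and the black bar is the median over 16 horses; EQMHCC1 falls into 2 separate clusters, while the horses span at most 0.503 log2 in each of the 10 genes at the bottom.

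The named genes that differed most between horses were EQMHCC1, CLU, CLEC4E, HP, IL22RA2 and OLFM4. Among the 50 highest ranked gene names only 24 had a symbol, and the named genes are those with one. The first in rank, listed as L33910 with no symbol, lay at -5.13 in horse 34 and -4.36 in horse 17, and between 2.63 and 5.75 in the other 14 horses, with an SD of 3.1 (2.31 without horse 34).

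EQMHCC1, an equine MHC class I gene whose product shows peptides to T cells, had the highest SD of any named gene, 3.08. Its level was -5.10 in horse 1 as the lowest, 1.10 as the median and 2.74 in horse 24 as the highest, a 229-fold range. Horses 1, 8, 32, 41, 55 and 62 lay at -3.67 or lower, and the other 10 horses at 0.68 or higher, with no horse in between. It was measured with 1 probe, and near-identical class I genes can share the signal of a probe.

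CLU, which encodes clusterin, a chaperone of plasma and platelet granules, had an SD of 2.35. Its level was -3.75 in horse 46, 0.46 at the median and 4.18 in horse 17, with the other horses spread between them. The second probe of CLU followed the first with r = 0.997. CLEC4E, a C-type lectin of myeloid cells that senses damaged cells and mycobacteria, had an SD of 1.92, with 2.60 in horse 2, 6.32 at the median and 7.78 in horse 1 (second probe r = 0.998). Horses 2, 8, 17, 19, 41 and 55 lay between 2.60 and 3.68 for CLEC4E, and the other 10 horses at 5.06 or above.

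HP, which encodes haptoglobin, the acute-phase protein that binds free haemoglobin and is stored in neutrophil granules, had an SD of 1.88. It was lowest in horse 7 at -1.38, had a median of 2.97 and was highest in horse 55 at 4.76. The females 7, 19 and 1 were the 3 lowest horses, followed by the gelding 32 at 0.16. IL22RA2, the soluble receptor that binds interleukin 22 and blocks it, had an SD of 1.72, from -3.15 in horse 21 over a median of 0.72 to 3.57 in horse 62. OLFM4, olfactomedin 4 of the specific granules of a subset of neutrophils, had an SD of 1.67, from -2.01 in horse 1 over 1.05 to 4.54 in horse 62. Both of the last were highest in horse 62. HP and IL22RA2 were measured with 1 probe each, while the second probe of OLFM4 followed the first with r = 0.998.

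The remaining named genes of the top 20 had SDs between 1.31 and 1.54. Except for COL15A1 and IL8, they were measured with 1 probe each. They held the macrophage genes VSIG4 (SD 1.54), a complement receptor, and MARCO (SD 1.45), a scavenger receptor for bacteria, and SIRPB1 (SD 1.34), a receptor of myeloid cells. IL8 (SD 1.34), the chief chemokine for neutrophils, was low in 2 horses, with -4.18 in horse 24 and -3.53 in horse 46, against -2.05 to 0.90 in the others. MAN1A1 (SD 1.44), a mannosidase of the Golgi, lay at 0.76 or above in horses 17, 19, 32, 46 and 55, and at -1.04 or below in the other 11. XPA (SD 1.36), a DNA repair protein, lay at 0.30 or above in horses 1, 17, 19, 46 and 55, and at -1.44 or below in the other 11. The list also held THY1 (SD 1.44), CAPN3 (SD 1.42), a calpain best known from muscle, GGNBP1 (SD 1.47), COL15A1 (SD 1.35), and the genes MNT (SD 1.46) and CAMK2A (SD 1.31), which followed the scan day as described further on. HBQ1 (SD 1.31), a globin gene, was highest in horse 62.

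The named gene that differed least between horses was CCDC28A. CCDC28A had an SD of 0.10, with levels from -0.63 in horse 7 over a median of -0.43 to -0.27 in horse 44, a 1.28-fold range. RER1, which returns proteins from the Golgi to the endoplasmic reticulum, had an SD of 0.11, from 1.0 in horse 17 over 1.14 to 1.42 in horse 4. The others were IMMT of the mitochondrial inner membrane (SD 0.12), JTB (SD 0.12), RBM42 (SD 0.12) and METTL23 (SD 0.12), SNRNP70 of the U1 splicing particle (SD 0.13), LSM14A of RNA granules (SD 0.13), PDCD6IP of membrane budding (SD 0.13) and POC5 of the centriole (SD 0.13). Their folds between the lowest and the highest horse were 1.28 to 1.42. At this size a second probe need not agree, since both probes of IMMT had an r of -0.01.

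**Figure D2:**
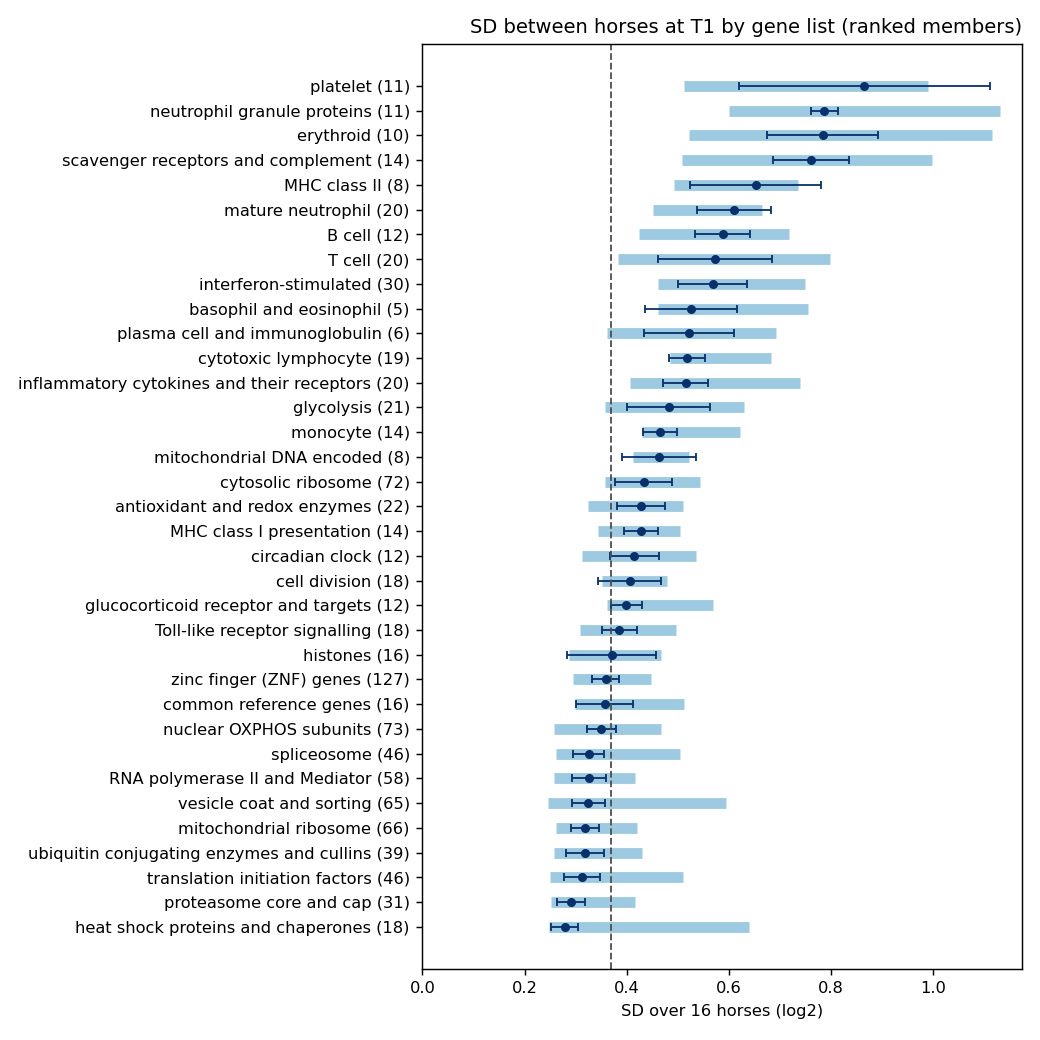
SD between horses, in log2 units on the x axis, for the ranked members of 35 gene lists, with the number of members in parentheses. The dot is the median SD, the whisker its standard error from leaving out each of the 16 horses in turn, the pale bar the middle 50% of the members, and the dashed line the median of 0.37 over all 13436 gene names; platelet, granule, erythroid and scavenger lists lie at the top, and proteasome and heat shock lists at the bottom.

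By function, the lists of platelet, neutrophil granule, red cell and scavenger genes had the highest spread. Each list is described by the number of members in the highest and lowest 10.0% of the ranking, where 10.0% of all gene names lie by construction, and by its median SD with the standard error from leaving out each horse in turn. A list's median SD also has a percentile, its place among the SDs of all 13436 gene names. Of 35 lists with a ranked member, 24 had a median above that of all gene names, and these lists were not drawn independently of earlier results. Markers known from blood cells made up most of the upper part of the order.

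Platelet genes had the highest median SD, 0.865 ± 0.246 over 11 members, at percentile 96.5, with 6 in the highest 10.0% and 0 in the lowest. Besides CLU they held GP9 (SD 1.07), a subunit of the von Willebrand factor receptor, F13A1 (SD 1.0), the clotting factor XIII subunit, SPARC (SD 0.98), a protein of alpha granules, and TUBB1 (SD 0.95), the tubulin of the platelet ring. GP9 lay at -3.62 in horse 19, -0.46 at the median and 0.86 in horse 2. The least variable member was THBS1, thrombospondin, with an SD of 0.35. The platelet genes did not follow each other closely, with a median r of 0.20 between members.

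Neutrophil granule genes had a median SD of 0.787 ± 0.027 over 11 members, at percentile 94.3, with 7 in the highest 10.0% and 0 in the lowest. HP and OLFM4 led, followed by LCN2 (SD 1.19), which binds iron carriers of bacteria, BPI (SD 1.08), which kills Gram-negative bacteria, and LTF (SD 1.07), lactoferrin. LCN2 ranged from -0.26 in horse 21 over 1.59 to 3.83 in horse 62, and LTF from 2.89 in horse 34 over 5.01 to 6.21 in horse 41. The r between the probes of LTF was 0.999. Genes of the mature neutrophil, which make receptors and the oxidase, had a lower median SD of 0.611 ± 0.072 over 20 members, with 4 in the highest 10.0%. Without horse 34 their median SD was 0.543. TREM1 (SD 0.90), which amplifies inflammatory signals, varied most and CXCR2 (SD 0.28), the receptor for IL8, least. The calprotectin genes S100A8 (SD 0.63) and S100A9 (SD 0.65) lay between.

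Erythroid genes had a median SD of 0.784 ± 0.109 over 10 members, at percentile 94.2, with 6 in the highest 10.0% and 1 in the lowest. Besides HBQ1 they held AHSP (SD 1.14), the chaperone of alpha globin, and HBB (SD 1.04), beta globin. HBB lay at 5.20 in horse 1, 7.07 at the median and 9.77 in horse 62, and r with its second probe was 0.998. UROD (SD 0.18), an enzyme of haem synthesis that other cells use too, varied least.

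Scavenger receptor and complement genes had a median SD of 0.761 ± 0.074 over 14 members, at percentile 93.4, with 9 in the highest 10.0% and 0 in the lowest. VSIG4 and MARCO were followed by the 3 chains of complement C1q, C1QB (SD 1.02), C1QC (SD 1.0) and C1QA (SD 0.98). C1QA lay at 0.44 in horse 8, 2.18 at the median and 4.11 in horse 55, and C1QB at -1.69 in horse 21, 0.59 at the median and 2.06 in horse 55. CD163 (SD 0.71), the receptor for haptoglobin bound to haemoglobin, and HMOX1 (SD 0.68), which breaks down haem, were near the border of the highest 10.0%, and C3 (SD 0.24) varied least.

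Lymphocyte and antigen presentation genes came next. MHC class II genes had a median SD of 0.653 over 8 members (0.607 without horse 34), from DRB (SD 0.36) to DQB (SD 0.94), with 3 in the highest 10.0%. B cell genes had a median SD of 0.588 over 12 members, with CD79A (SD 0.92), a chain of the B cell receptor complex, as the highest and POU2AF1 (SD 0.21) as the lowest. T cell genes had a median SD of 0.574 over 20 members, with 8 in the highest 10.0% and 0 in the lowest. TRAC (SD 1.0), the constant part of the T cell receptor alpha chain, ranged from -0.98 in horse 21 over 1.79 to 3.37 in horse 24, and CD3E (SD 0.96) from -0.98 in horse 21 over 1.41 to 2.79 in horse 24. CD3D (SD 0.29) of the same receptor complex and CD6 (SD 0.25) varied far less, so T cell genes did not share 1 size of spread. Cytotoxic lymphocyte genes had a median SD of 0.518 over 19 members, from TBX21 (SD 0.27) to KLRB1 (SD 0.96).

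Lists of innate defence had medians above that of all gene names. Interferon-stimulated genes had a median SD of 0.569 over 30 members, with 11 in the highest 10.0% and 2 in the lowest. STAT2 (SD 1.07), IFIT3 (SD 0.92) and MX1 (SD 0.87) varied most, and OASL (SD 0.19) was among the least variable. ISG15 (SD 0.82) ranged from 0.19 in horse 8 over 1.14 to 2.66 in horse 24. Inflammatory cytokines and their receptors had a median SD of 0.515 over 20 members, with 6 in the highest 10.0%, among them IL8, the decoy receptor for interleukin 1 listed as IL-1RII (SD 1.01) and CXCL1 (SD 0.98), while CSF3 (SD 0.23) and IL4R (SD 0.24) varied little. Monocyte genes had a median SD of 0.465 over 14 members, from VCAN (SD 0.33) to MPEG1 (SD 0.92), and Toll-like receptor signalling genes one of 0.385 over 18 members, from TLR8 (SD 0.23) to MYD88 (SD 0.65). Basophil and eosinophil genes (median SD 0.526 over 5 members, HDC 0.44 to FCER1A 0.77) and plasma cell genes (median SD 0.522 over 6 members, XBP1 0.33 to MZB1 0.77) rest on few members.

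Metabolic and clock genes lay near the middle. Glycolysis genes had a median SD of 0.482 over 21 members (0.451 without horse 34). They ran from GPI (SD 0.22) to LDHB (SD 1.09), the lactate dehydrogenase subunit that favours pyruvate. LDHA (SD 0.25), the other subunit, was among the least variable members. Genes encoded by mitochondrial DNA had a median SD of 0.464 over 8 members, from ND2 (SD 0.28) to ND4L (SD 0.64), and nuclear subunits of oxidative phosphorylation (OXPHOS) one of 0.351 over 73 members, from NDUFS1 (SD 0.18) to SDHC (SD 0.99). Antioxidant genes (median SD 0.428 over 22 members, PRDX3 0.23 to NQO1 0.73), MHC class I presentation genes (0.428 over 14, PSMB10 0.23 to PSMB8 1.19), circadian clock genes (0.415 over 12, ARNTL 0.22 to PER1 0.82), cell division genes (0.406 over 18, MCM6 0.32 to KIF11 0.57) and glucocorticoid receptor and target genes (0.399 over 12, SGK1 0.31 to TFCP2L1 0.95) were all above the median of all gene names. FKBP5 (SD 0.40) and TSC22D3 (SD 0.33), well known targets of cortisol, had SDs close to that of the typical gene.

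Genes of protein and RNA upkeep had the lowest spread under this processing. Heat shock and chaperone genes had a median SD of 0.279 ± 0.026 over 18 members, at percentile 24.9, but were split, with 4 in the highest 10.0% and 4 in the lowest. HSPA1A (SD 0.89), the classic inducible heat shock gene, lay at 1.84 in horse 19, 2.46 at the median and 4.73 in horse 32, while DNAJB6 (SD 0.14) lay between 0.57 and 1.07. HSPA8 (SD 0.75), BAG3 (SD 0.74), HSPH1 (SD 0.74) and HSP90AA1 (SD 0.68) were in the upper part as well, and the CCT chaperonin subunits lay between CCT5 (SD 0.20) and CCT4 (SD 0.28). Proteasome genes had a median SD of 0.290 ± 0.027 over 31 members, with 5 in the highest and in the lowest 10.0%, from PSMD1 (SD 0.15) to PSMC3 (SD 0.87). Translation initiation factors had a median SD of 0.312 ± 0.035 over 46 members, from EIF3H (SD 0.18) to EIF2B5 (SD 1.17). The low place of these 3 lists did not hold under other normalizations. With normexp background correction and quantile normalization their percentiles were 61.2, 60.0 and 63.4, and in the deposited series values 51.5, 47.1 and 49.8, while the 4 lists at the top stayed at percentile 78.4 or higher in both.

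Other lists of general machinery lay slightly under the median of all gene names. They were the mitochondrial ribosome (median SD 0.319, MRPS7 0.19 to MRPS18B 1.20), ubiquitin conjugating enzymes and cullins (0.319, with UBA7 the highest at 0.98), vesicle coat and sorting (0.325, SEC24D 0.17 to VPS11 1.01), RNA polymerase II and Mediator (0.325, POLR2B 0.18 to POLR2K 1.02), the spliceosome (0.326, SF3A3 0.19 to PRPF8 1.20) and zinc finger genes (0.359, ZNF200 0.14 to ZNF438 0.96). Histone genes were at 0.371, from H2AC4 (SD 0.17) to H2BC9 (SD 0.61). Genes of the cytosolic ribosome had a higher median SD, 0.433 over 72 members, and 0.412 without horse 34. In the highest 10.0% were 7 of them (9.72%), near the share of all gene names, and 0 were in the lowest. RPS2 (SD 0.23) varied least.

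Genes in common use as references differed widely in stability. Among the steadiest were TBP (SD 0.20), ALAS1 (SD 0.22), POLR2A (SD 0.28), PPIA (SD 0.30) and YWHAZ (SD 0.32), followed by PGK1 (SD 0.35), HPRT1 (SD 0.36), ACTB (SD 0.36) and GUSB (SD 0.44). RPLP0 (SD 0.47), B2M (SD 0.51) and EEF1A1 (SD 0.52) were lowest in horse 34, whose array held the saturated spots, and without it their SDs were 0.28, 0.30 and 0.26. GAPDH (SD 0.64), SDHA (SD 0.73) and TUBA1B (SD 0.73) varied most, and GAPDH ranged from 6.39 in horse 46 over 7.17 to 8.41 in horse 62. TFRC was on the array but was not well above background in every horse.

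**Figure D3:**
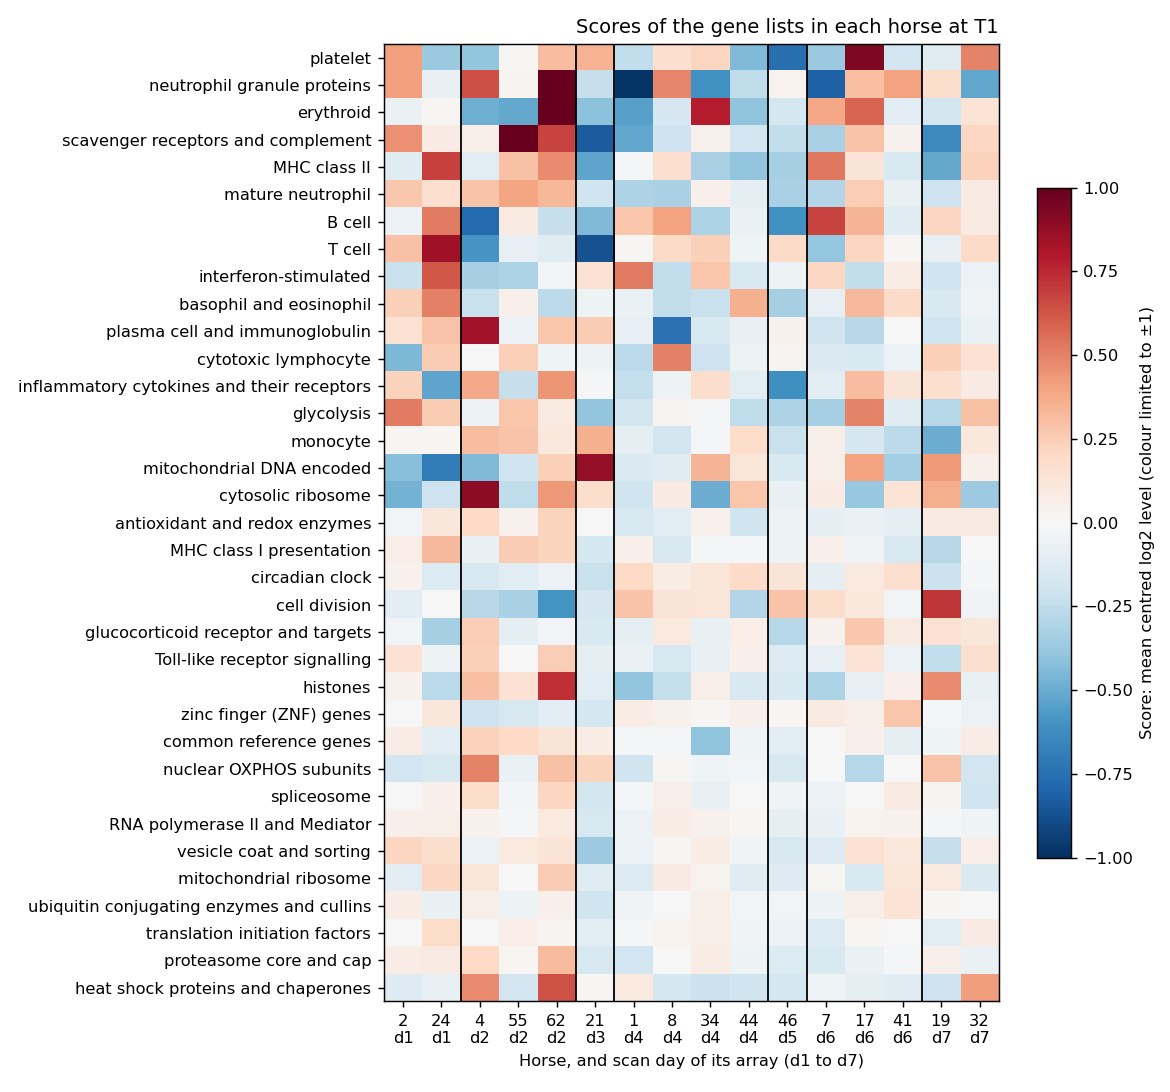
Scores of the 35 gene lists (rows, ordered by median SD) in each of the 16 horses (columns, grouped by scan day between the black lines). A score is the mean of the members' log2 levels, each centred on its mean over the horses, and colours stop at 1 in either direction; horse 62 is high in granule and erythroid genes, horse 55 in scavenger genes and horse 21 low in T cell and scavenger genes.

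Scores, the mean of a list's centred log2 levels in a horse, showed which animals stood at the ends. Horse 62 had the highest score for granule genes (1.0), erythroid genes (1.15), histones (0.73) and heat shock genes (0.63), and the lowest for cell division (-0.60). Horse 1 had the lowest granule (-0.98) and erythroid (-0.54) scores. The scavenger and complement score ran from -0.83 in horse 21 to 1.11 in horse 55. The platelet score ran from -0.75 in horse 46 to 0.93 in horse 17. The T cell score ran from -0.87 in horse 21 to 0.85 in horse 24, and the interferon score from -0.33 in horse 4 to 0.62 in horse 24, with horse 1 next at 0.52. Over all ranked genes, each horse was set against the mean of the other horses by root mean square, times a constant equal for all horses. Horse 21 deviated most (0.678 log2), followed by horse 62 (0.575) and horse 19 (0.547), and horse 44 least (0.358).

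How closely the members of a list moved together differed from list to list. Genes of the cytosolic ribosome had a median r of 0.78 between members over the 16 horses, genes of mitochondrial DNA one of 0.69, histones 0.58, cell division 0.57, nuclear OXPHOS subunits 0.50, B cell genes 0.39 and heat shock genes 0.37. Among the lists of high spread, scavenger genes had 0.30 and T cell genes 0.31, but granule genes had 0.19, erythroid genes 0.10 and mature neutrophil genes 0.10. Members hardly moved together in the lists of antioxidant (0.015), MHC class I presentation (0.019), glucocorticoid (0.052), Toll-like receptor (0.059) and monocyte genes (0.082). The score of such a list can rest on a few members. Members share the array, its depth and its scan, so these values are descriptions.

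Among the 300 gene names of highest SD, clustering at an r of 0.6 gave 3 groups of 8 or more names. The largest held 100 names, 79 with a symbol, and had a median r of 0.83 within it. It held the T cell genes TRAC, CD3E and TCRB with the myeloid genes MARCO, TREM1, CTSB, MYD88 and FGR, the splicing factor PRPF8, the translation factors EIF2B5 and EIF4E2, and the enzymes LDHB and PKM. Its mean level was lowest in horse 21 (-2.0) and highest in horse 24 (1.22), and 67.4% of the variance of its median gene lay between scan days, against 53.8% over all ranked genes and 40% that 7 days give over 16 arrays with no effect of day. Without horse 34 the largest group held 120 names.

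The second group held 32 names, 21 with a symbol, among them MNT, CAMK2A, NAV2, PLA2G2D, SLC23A2 and STAT2. Its mean level was low in horses 4, 55 and 62 (-1.32, -1.39 and -1.37), in horse 46 (-1.10) and in horse 21 (-1.07), and between -0.28 and 1.02 in the rest. Its share of variance between scan days was 84.7%. The third group was of red cell genes, with HBQ1, AHSP, HBA2 and HBB among its 8 names. It was highest in horse 62 (2.96), horse 34 (1.48) and horse 17 (1.21), lowest in horse 1 (-1.55), and had 17.1% of its variance between scan days.

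For the 5 named genes of highest SD, the 3 genes with the most similar pattern over the 16 horses were taken by Pearson r. Among those most like EQMHCC1 were BID (0.76) and C26H21orf91 (0.69). Among those most like CLU were MED18 (0.84) and SLC25A12 (0.80). CLEC4E was most like HERC5 (0.79), LYZ (0.77) and ISG15 (0.75), the first and the last being interferon-stimulated genes. HP was most like TXNL4B (0.88), NMNAT3 (0.84) and TBC1D20 (0.80), and IL22RA2 most like SF3B5 (0.89), GAPT (0.87) and LCN2 (0.86).

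**Figure D4:**
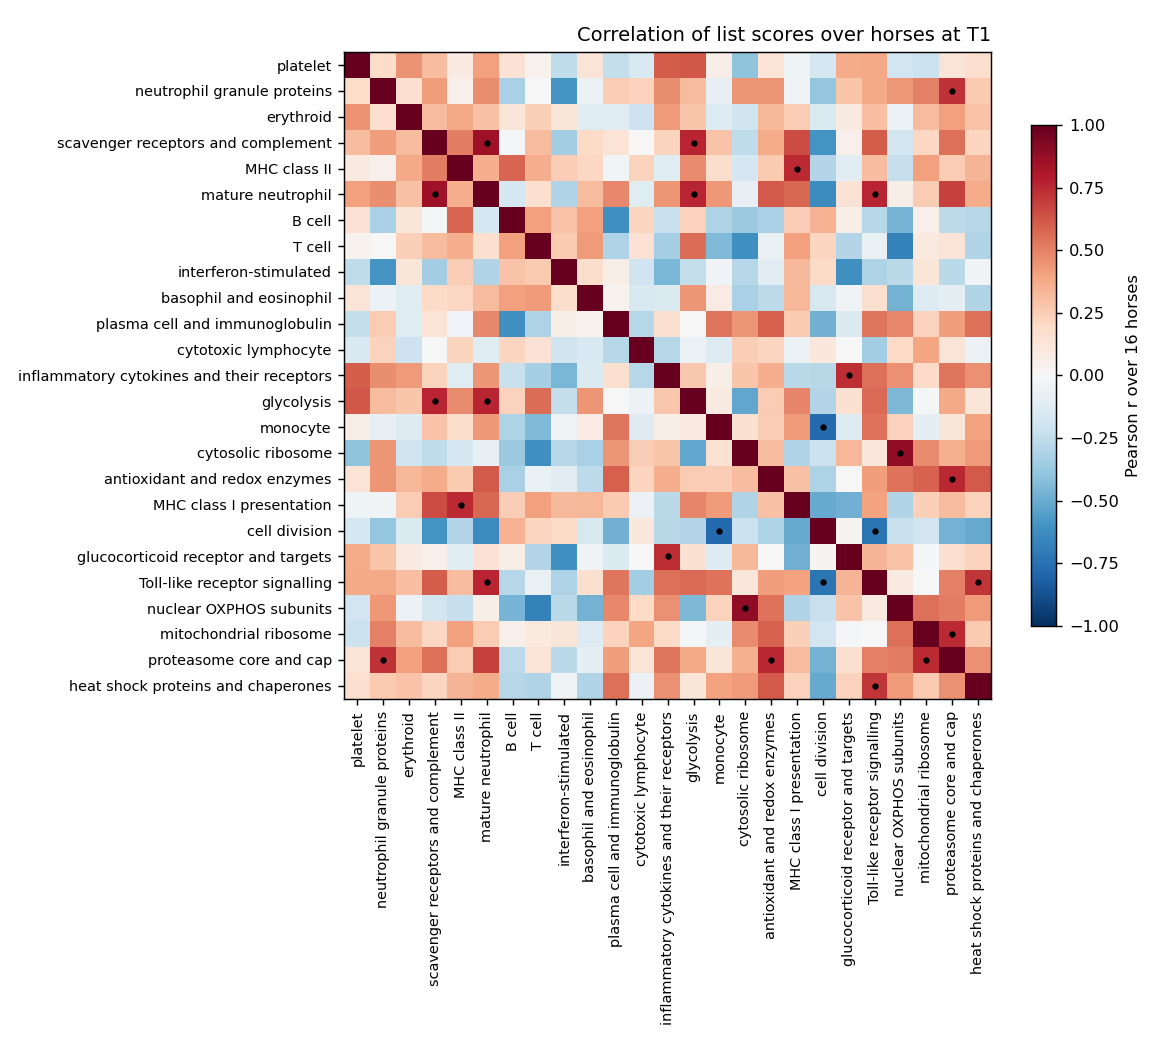
Pearson r over the 16 horses between the scores of 25 gene lists, from -1 (blue) to 1 (red). Dots mark the 13 of 300 pairs with an adjusted permutation p below 0.05; mature neutrophil, scavenger and glycolysis scores rise together, and cell division is opposed to monocyte and Toll-like receptor scores.

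Scores of some lists moved together over horses, though the members of several of these lists hardly moved together themselves. Of 300 pairs among 25 scores, none of which share a member, 13 (4.33%) had a permutation p of r below 0.05 after Benjamini-Hochberg adjustment over all pairs, and 48 before it. The mature neutrophil score rose with the scavenger and complement score (r = 0.85, adjusted permutation p = 0.0015; rho = 0.86, adjusted permutation p = 0.006), and r was 0.79 without horses 55 and 62, which lay farthest from the median. The cytosolic ribosome score rose with the nuclear OXPHOS score (r = 0.88, adjusted permutation p = 0.0015; rho = 0.84, adjusted permutation p = 0.013), and r was 0.88 without horses 4 and 34. The unadjusted permutation p of r was 1e-05 for both, the smallest that 100000 permutations can give. With scan day as a term in both scores, r was 0.73 and 0.87.

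The monocyte score was opposed to the cell division score (r = -0.78, adjusted permutation p = 0.031; rho = -0.75, adjusted permutation p = 0.041), with r = -0.68 without horses 19 and 21 and -0.59 within scan days. The glycolysis score rose with the scavenger score (r = 0.76, adjusted permutation p = 0.031; rho = 0.87, adjusted permutation p = 0.006), and r was 0.79 within scan days. It also rose with the mature neutrophil score (r = 0.76, adjusted permutation p = 0.031), where rho was 0.67 and did not pass (adjusted permutation p = 0.12). The Toll-like receptor score rose with that of mature neutrophils (r = 0.76, adjusted permutation p = 0.031; rho = 0.82, adjusted permutation p = 0.017), with r = 0.58 within scan days.

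In the other 7 pairs r passed the threshold too. Without the 2 farthest horses r was weaker in them, as it was for the monocyte with the cell division score. Toll-like receptor and cell division scores were opposed (r = -0.73, adjusted permutation p = 0.031; rho = -0.73, adjusted permutation p = 0.054), and r was -0.61 without horses 4 and 62. MHC class II rose with MHC class I presentation (r = 0.75, adjusted permutation p = 0.031; rho = 0.71, adjusted permutation p = 0.072), and r was 0.68 without horses 7 and 24. The proteasome score rose with that of the mitochondrial ribosome (r = 0.74, adjusted permutation p = 0.031; rho = 0.76, adjusted permutation p = 0.041), and r was 0.60 without horses 24 and 62.

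The remaining 4 pairs rested in part on their 2 farthest horses. The proteasome score rose with antioxidant enzymes (r = 0.76, adjusted permutation p = 0.031; rho = 0.66, adjusted permutation p = 0.14), with r = 0.52 without horses 4 and 62, and with granule proteins (r = 0.72, adjusted permutation p = 0.038; rho = 0.64, adjusted permutation p = 0.16), with r = 0.50 without horses 1 and 62. Inflammatory cytokines rose with glucocorticoid receptor targets (r = 0.74, adjusted permutation p = 0.031; rho = 0.63, adjusted permutation p = 0.16), with r = 0.47 without horses 24 and 46. Toll-like receptor genes rose with heat shock genes (r = 0.71, adjusted permutation p = 0.043; rho = 0.52, adjusted permutation p = 0.34), with r = 0.43 without horses 4 and 62.

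No called pair changed sign in any alternative, but the number of calls depended on single horses, and which pairs were called also on the normalization. It was 2 without horse 4, 19 or 46, 6 without horse 62, 8 without horse 1 or 7, and 5 in the 13 validation horses alone. With scan day as a term 0 pairs passed the adjusted threshold (27 before adjustment), where the horses allow only 3456 orders within days and the smallest p is 0.00029. Of 50 relations of scores with the share of probes well above background or the 75th percentile of the array, none had an adjusted permutation p below 0.05. The closest were the T cell score (r = 0.72, rho = 0.66) and the monocyte score (r = -0.70, rho = -0.71) with the 75th percentile. Both had an adjusted permutation p of 0.061 for r, and r was 0.48 and -0.54 without the 2 farthest horses. Several others passed before adjustment. With the 75th percentile these included cell division (r = 0.55, unadjusted permutation p = 0.027), nuclear OXPHOS (r = -0.57, p = 0.021), heat shock (r = -0.51, p = 0.045) and antioxidant scores (r = -0.50, p = 0.046). Monocyte and cell division scores thus went opposite ways with the 75th percentile. Whether this bears on their opposition to each other was not tested.

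**Figure D5:**
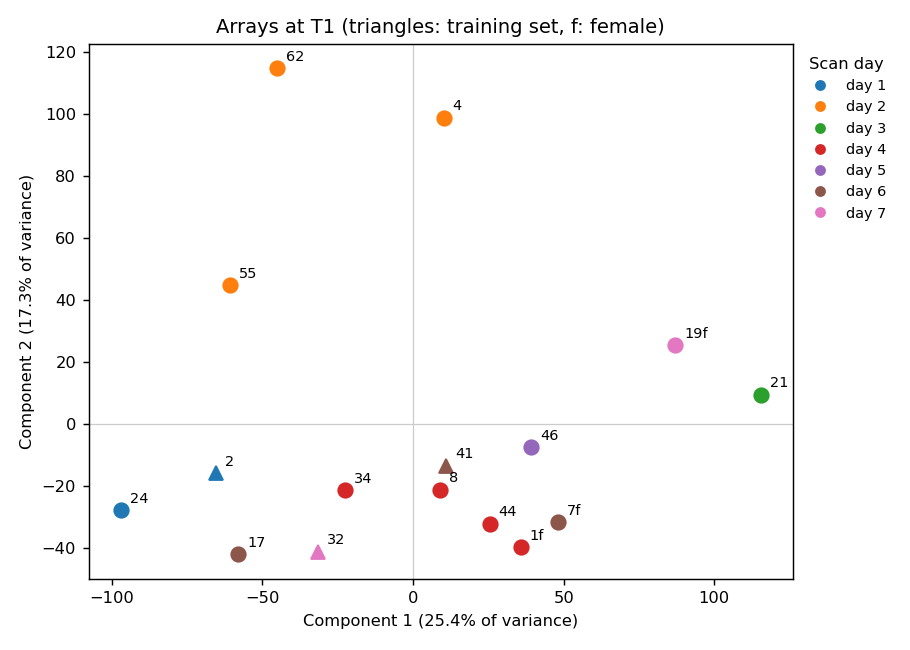
Position of the 16 arrays on the first 2 principal components of 13436 gene names, centred and of unit variance, with the share of variance on each axis. Points are labelled by horse and coloured by scan day, triangles are training horses and f marks a female; the day 2 horses 4, 55 and 62 have the highest values on component 2, and horses 21 and 19 on component 1.

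The first principal component held 25.4% of the variance, the second 17.3% and the third 10.2%. Component 1 had horse 21 (115.5) and horse 19 (87.0) at its upper end and horse 24 (-97.1) at its lower end. Across horses, its r was -0.94 with the vesicle coat score, -0.89 with glycolysis, -0.85 with translation initiation and -0.83 with scavenger genes. Members of the vesicle coat and translation initiation lists did not move together (median r of -0.022 and -0.011 between members). Their scores can therefore rest on a few members and do not stand for the list as a whole. Component 2 was highest in the day 2 horses 62 (114.7), 4 (98.8) and 55 (44.8), and between -42.0 and 25.5 in the others. Its r was 0.83 with histones, 0.80 with nuclear OXPHOS, 0.73 with antioxidant enzymes, 0.73 with the proteasome and -0.65 with zinc finger genes, and -0.60 with the share of probes well above background. These are descriptions, since the components were computed from the same levels.

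Scan day separated a part of the genes. Of 13436 gene names, 607 (4.52%) differed between the 7 days at an adjusted p below 0.05 (limma, moderated F), and 3449 before adjustment. The genes called by day were among the more variable, with 197 of the 1343 names of the highest 10.0% (14.67%) and 0 of the lowest 10.0%. The named genes of smallest p were SLC23A2 (adjusted p = 0.00018), a vitamin C transporter, SLC25A34 (0.00048), a mitochondrial carrier, TFCP2L1 (0.00048), a transcription factor, PLA2G2D (0.0011), a secreted phospholipase, and CAMK2A (0.0014), a calcium-dependent kinase. SLC23A2 lay at -4.96 as the lowest, -2.32 at the median and -1.90 as the highest, and CAMK2A at -4.33, -1.97 and -0.68. In all 5 genes the lowest 4 horses were the day 2 horses 4, 55 and 62 with horse 46 of day 5, except that horse 21 of day 3 came before horse 46 in CAMK2A.

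Of the genes leading the ranking, MNT, a transcriptional repressor of the MYC network, was called by scan day (adjusted p = 0.0054), with 89.7% of its variance between days. EQMHCC1 (0.73), CLU (0.65), CLEC4E (0.87), HP (0.37), IL22RA2 (0.17), OLFM4 (0.67) and HBB (0.66), with adjusted p values in parentheses, were not. By list, 4 of 20 T cell genes (20%) were called, among them CCR7, ZAP70 and CD4, with a median of 70.1% of variance between days. Also called were 7 of 65 vesicle coat and sorting genes (10.8%), 2 of 21 glycolysis genes (9.52%) and 1 of 5 basophil and eosinophil genes (20%), against 4.52% of all gene names. Granule, mature neutrophil, monocyte, erythroid, interferon and MHC class II genes had 0 calls among 8 to 30 members each, which is near that share. Within scan days the median SD over all gene names was 0.32, and the SDs within days and over all horses had a Spearman rho of 0.83 across gene names. The lists at the top kept high medians within days, with 0.814 for platelet, 0.770 for granule, 0.678 for erythroid and 0.640 for scavenger genes.

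The count of genes called by day depended on the normalization and on single arrays. It was 223 with quantile normalization, 124 with normexp and 102 in the deposited series values, and lay between 180 without horse 62 and 1676 without horse 32. Days 3 and 5 held 1 array each, so horse 21 and day 3, and horse 46 and day 5, cannot be told apart.

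Few genes passed the test between females and geldings, and 1 of them is a known gene of the Y chromosome. Of 18564 gene names flagged well above background in 3 horses or more, 8 (0.0431%) passed an adjusted p of 0.05 (limma), 3 higher in females (0.0162%) and 5 lower (0.0269%), and 1815 passed before adjustment. With normexp and quantile normalization 10 were higher and 4 lower, with quantile normalization alone 2 and 7, and in the deposited series values 9 and 5. KDM5D, a histone demethylase gene of the Y chromosome, lay at -8.43, -8.02 and -6.43 in the 3 females, and in the 13 geldings at -4.90 as the lowest, -3.65 at the median and -3.26 as the highest. It was well above background in 0 females and in all 13 geldings, at least 4.37-fold higher in geldings (adjusted p = 1.1e-05), where the bound takes each female's dimmest signal flagged well above background. KDM5D separated the labelled sexes in all 16 horses. SRY, the other gene of a list of Y-linked symbols that was found on the array, was well above background in 2 of 3 females and 8 of 13 geldings. It did not separate them.

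The other names lower in females were OFD1 and 3 transcripts with no symbol. The transcript listed as JL617082 was at least 31.3-fold and CX603680 at least 22.3-fold higher in geldings, both well above background in all geldings and in 0 females, and JL616107 was higher in geldings by 2.98 log2 (SE 0.21). OFD1, a gene of the ciliary base, lay at 1.25, 1.49 and 1.80 in the females and between 2.66 and 3.11 in the geldings, a difference of -1.37 (SE 0.148, adjusted p = 0.00017). CEP63, a centrosome gene, was higher in females, with 0.42, 1.04 and 1.15 against -0.48 to 0.03 in the geldings, a difference of 1.18 (SE 0.166, adjusted p = 0.0054). In both genes the groups did not overlap. The transcript ENSECAT00000000665 was higher in females by 1.55 (SE 0.255, adjusted p = 0.031). BICC1 also passed (adjusted p = 0.037), but it was well above background in only 2 females and 1 gelding, so the size of its difference was not measured. METTL26 (adjusted p = 0.11) and HP, with a mean of -0.55 in females and 3.1 in geldings (adjusted p = 0.13), did not pass. The sexes are 3 against 13, and the females were scanned on days 4, 6 and 7. With scan day as a term 12 names passed, 0 higher and 12 lower in females, 5 of them among the 8. CEP63, ENSECAT00000000665 and BICC1 thus did not pass as higher in females with scan day as a term. Without horse 1, 0 names were called higher in females as well.

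No gene passed the test between training and validation horses. Of 18564 gene names, 0 (0%) passed an adjusted p of 0.05 (limma), and 705 passed before adjustment, with a smallest adjusted p of 0.79. The named gene of smallest p was EHD4, which makes a protein of endosome recycling, at -4.14, -4.04 and -3.92 in the 3 training horses and between -5.87 and -4.61 in the validation horses, a difference of 1.23 (SE 0.251, adjusted p = 0.86). KRTCAP3 and SHC3, with differences of 0.56 and 0.82 log2, and SLC5A12 and FBXO39, which were well above background in 3 and 4 of the 16 horses and so have no measured size, were the other named genes, each with an adjusted p of 0.86. With 3 training horses, leaving out a single horse gave between 0 and 2 calls.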

How the data were processed

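Whole-blood RNA was labelled with Cy3 and hybridised to custom equine Agilent arrays of 1 colour, 1 per horse at T1. Per the file headers, the authors extracted each scan with Agilent Feature Extraction 10.7.3.1, and deposited the processed signal, an intensity after background subtraction and spatial detrending with no scaling between arrays. The deposited series values are on a log2 scale, with column medians between 7.09 and 7.10 and a rank order close to that of mean signal minus local background (rank correlation of 0.998 or higher), and were read as normalized between arrays. The submitters' processing notes name limma with no version. Flags of each spot (well above background, saturated, outlier) came from the same deposited files. All columns of values belonged to a labelled sample (0 without one).

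Here, log2 processed signals minus the array's 75th percentile were used. Control spots and outlier flags were left out (228 probes and 88 gene names had none left), saturated spots were kept, spots of a probe were averaged, and each gene name was represented by its brightest probe (mean of all 16 arrays). Symbols came from the array for 6777 gene names, from the reference gene table for 7844 and from the study's annotation for 489, and 9305 had none. Tests used limma 3.58.1 in R 4.3.3 (lmFit and eBayes) with Benjamini-Hochberg adjustment at 0.05. Scan day was tested by a moderated F on names well above background on all 16 arrays, sex and set on names well above background on at least 3. Scores were compared by permutation (100000, two-sided) in Python 3.11.15 with numpy 2.4.6, pandas 2.3.3 and scipy 1.17.1. P-values of limma weigh a difference against the variation between arrays, which holds differences between horses and technical error together. Those of permutation weigh r against shuffled horses, and the ranking by SD has no p-value. The arrays lay on 14 slides, too few per slide for a test. The steps were tested on simulated data. The number of arrays limits the precision.

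Genes named were the 20 symbols of highest and 10 of lowest SD, the extremes of each list, the 3 most like each of the 5 of highest SD, the 5 of smallest p for day, sex and set, and the Y-linked and reference genes; the brightest gene name stood for a symbol. Further members, the unnamed transcripts and the genes of the clustered groups were named after their values were seen. The arrays, lists and tests were chosen with earlier results of these data known. Alternatives were other normalizations, filters, measures of spread and gene rules, scan day as a term and horses left out. The T0 arrays were not used here. A few genes that these rules name are not reported here.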

Additional observations from a re-analysis of the deposited data

How the results depend on the processing

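The median SD of 0.369 was 0.179 with normexp and quantile normalization, 0.256 in the deposited series values, 0.419 with names well above background on at least 8 arrays, 0.5001 with no filter, 0.339 as a median absolute deviation and 0.316 within scan days, and 0.357 to 0.374 with a horse left out. Of the 1343 names of the highest 10.0%, 547, 829, 606, 207 and 876 were shared with the first 5 of these settings, 1203 with quantile normalization alone, and 1105 to 1303 with a horse left out. The platelet percentile was 88.8 with normexp and 78.1 with no filter (90.9 to 97.1 with a horse left out). The granule percentile was 98.0 with normexp, 96.7 in the series values, 87.3 with at least 8 arrays, 77.3 with no filter, 97.9 by median absolute deviation, 96.8 within days and 96.6 relative to the running median of SD at the same level (94.4 to 95.8 with a horse left out). The erythroid percentile was 78.4, 91.3 with quantile normalization, 91.2 in the series values, 90.5 with no filter and 90.7 by median absolute deviation (92.2 to 94.7). The scavenger percentile was 96.7 in the series values, 87.1 with at least 8 arrays and 77.7 with no filter (91.2 to 94.4). Translation initiation was at 63.4 with normexp, 49.8 in the series values, 19.6 with no filter and 46.6 relative to the running median (29.6 to 38.1), the proteasome at 60.0, 47.1, 15.8 and 40.2 in these settings (24.3 to 31.3), and heat shock at 61.2 and 51.5 in the first 2 of them, 37.6 with the mean of a name's probes, 44.3 by median absolute deviation, 32.7 within days and 40.1 relative to the running median (21.8 to 28.2). Why these lists move with the normalization was not tested. The count by scan day was 124 with normexp, 223 with quantile normalization, 102 in the series values, 1433 with names on at least 3 arrays and 1098 with no filter, and 180 to 1676 with a horse left out. The count by sex was 14 with normexp and in the series values, 5 with names on all 16 arrays, and 5 (without horse 1) to 13 (without horse 21) with a horse left out. The count by set was 0 to 2 with a horse left out. The 13 pairs of scores were 5 in validation horses, 0 with scan day as a term, 1 without the 2 farthest horses and 2 to 15 with a horse left out. With normexp and quantile normalization 9 pairs passed, 7 of them among the 13. With quantile normalization alone 13 passed (10 among the 13), in the series values 16 (11), and by Spearman rho 9 (6). Component 1 held 31.3% without scaling and 24.2% to 27.2% with a horse left out. The median r of both probes was 0.941 and the largest clustered group 120 names without horse 34. No direction of a called pair or gene turned in any setting. Leaving out each gelding, each validation horse or each horse in turn for scan day, sex, set, pairs and components was chosen after seeing the data. No paired analysis was possible because each horse has 1 array at T1 and the numbers 2, 32 and 41 are shared only with T0 arrays that were not used.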

Other observations

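For some genes the horses lay on both sides of a wide gap, with none in between. Of 18564 gene names well above background on at least 3 arrays, 47 (0.253%) had a gap of 2 log2 or more with at least 3 horses on each side, 21 of them with a symbol. These genes were found by searching for such gaps and were chosen after their values were seen, so they are given as values with no test. Where the low horses were not well above background, the size of a gap was not measured and is not given. EPCAM, an adhesion molecule of epithelial cells, was not well above background in horses 1, 17, 19, 21 and 44 (-7.12 or lower) and lay between -0.84 and 1.49 in the other 11, and r with its second probe was 0.993. The same 5 horses were low for the transcript DN511173, which has no symbol, with 2 of the 5 well above background.

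EQMHCC1, well above background in all 16 horses, had a gap of 4.34 log2 between horses 1, 8, 32, 41, 55 and 62 and the other 10. APOBEC3Z1B, a cytidine deaminase gene of antiviral defence, was not well above background in horses 1, 8, 32, 44 and 55, while the other 11 lay between -4.25 and -0.85. The same 5 horses were low for 2 names without a symbol. SLC25A3, the phosphate carrier of mitochondria, was well above background in all 16 horses but had a gap of 2.45, with horses 1, 4, 8, 17 and 41 at -3.28 or lower and the other 11 at -0.83 or higher. In 3 of the 47 names, all without a symbol, the females 1, 7 and 19 alone were low. WWTR1 was not well above background in horses 2, 7, 34 and 62, and lay between -4.64 and -3.36 in the other 12.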
